A study of Homo sapiens with 13 samples.

Results

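RUNX1-only intergenic regions are stretches of MOLM-13 chromatin with a called RUNX1 peak, no called PTBP1 peak and no annotated gene. They were selected on the positions of called peaks, as rows of the RUNX1 list that shared no base with any PTBP1 peak, lay outside every GENCODE version 44 gene of any type, and kept more than 1000 bases from every transcription start site (TSS). This rule chose 633 of the 7688 RUNX1 peaks, which was 20.7% of the 3057 RUNX1 peaks without a PTBP1 peak and 65.9% of the 960 intergenic RUNX1 peaks. The absence of a PTBP1 peak and the place outside genes are therefore how the regions were chosen and are not findings.

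RUNX1 is a hematopoietic transcription factor. Its Runt domain pairs with CBFβ and binds a short DNA motif whose core reads TGTGGT, and much of its binding in blood cells lies in enhancers far from genes. Neighboring motifs for ETS factors such as PU.1 and ERG, for C/EBP factors and for AP-1 are typical of myeloid enhancers. PTBP1 is an RNA-binding splicing regulator, and the study asked where it and RUNX1 share positions on chromatin.

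MOLM-13 is a cell line long established from acute myeloid leukemia. The series held CUT&Tag libraries with antibodies to PTBP1 (2 biological replicates), RUNX1 (2) and IgG (1), and CUT&RUN libraries for PTBP1, RUNX1, H3K27me3 and IgG (2 each), all from this line with no treatment or genetic change named in the labels. In CUT&Tag a transposase held by the antibody inserts adapters near the bound protein, and in CUT&RUN a nuclease cuts there. The values below come from 1 RUNX1 and 1 PTBP1 peak list. The lists name neither assay nor replicate and are assumed here to be from CUT&Tag, the assay whose peak calling the methods cover. No spread between cultures can therefore be given, and every interval and p-value covers the counting of these peaks only. Neighboring peaks are not independent of each other, and a region without a PTBP1 peak can still hold PTBP1 signal below the authors' threshold.

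The sequences that carry the results are windows reaching 50 bases to either side of the RUNX1 summit, the position of highest fragment pileup, on the plus strand of hg38. They are written in lower case, with capitals for the RUNX motif, TGTGGT or TGCGGT, which appears as ACCACA or ACCGCA when it lies on the minus strand. Each region is called by its nearest protein-coding TSS, a label of position and not of regulation. The first set shows 4 of the strongest regions in which the motif was present.
F3 region, chr1:94602528-94602628: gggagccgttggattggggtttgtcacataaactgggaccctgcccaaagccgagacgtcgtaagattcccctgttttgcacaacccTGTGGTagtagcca
GHR region, chr5:42268760-42268860: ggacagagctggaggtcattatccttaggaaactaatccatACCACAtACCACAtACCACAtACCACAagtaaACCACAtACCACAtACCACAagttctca
SASH1 region, chr6:148204132-148204232: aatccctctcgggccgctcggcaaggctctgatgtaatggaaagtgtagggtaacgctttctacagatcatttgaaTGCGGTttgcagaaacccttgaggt
FAM240B region, chr9:38672547-38672647: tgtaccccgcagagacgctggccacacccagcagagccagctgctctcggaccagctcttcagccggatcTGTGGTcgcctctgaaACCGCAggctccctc

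The F3 region was the strongest of the 633 and held a single TGTGGT near the right end of its window. The GHR region, next in strength, held 7 copies, in runs of 4 and 3 at a spacing of 7 bases. The second set shows the 3 strongest regions in which neither spelling occurred in the window.
TUBGCP5 region, chr15:23074421-23074521: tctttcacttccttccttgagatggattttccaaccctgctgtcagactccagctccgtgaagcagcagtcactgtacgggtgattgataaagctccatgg
PTPN1 region, chr20:50451217-50451317: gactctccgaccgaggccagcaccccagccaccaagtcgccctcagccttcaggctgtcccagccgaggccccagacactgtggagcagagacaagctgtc
MTFP1 region, chr22:30442541-30442641: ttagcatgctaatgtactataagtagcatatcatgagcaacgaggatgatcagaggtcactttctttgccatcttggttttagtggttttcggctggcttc

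The third set shows windows of regions whose nearest coding TSS was that of a gene with a hematopoietic function, at distances given below. Only windows that held the motif are printed in this set. Other regions at such genes, those at GATA2 and BATF3 among them, had no motif in the window and are described below by their values.
FOS region, chr14:75274926-75275026: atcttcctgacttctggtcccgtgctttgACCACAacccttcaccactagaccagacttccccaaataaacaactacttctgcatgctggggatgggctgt
SRGN region, chr10:69073143-69073243: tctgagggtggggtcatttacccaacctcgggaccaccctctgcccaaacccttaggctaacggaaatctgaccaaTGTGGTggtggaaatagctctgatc
SRGN second region, chr10:69075558-69075658: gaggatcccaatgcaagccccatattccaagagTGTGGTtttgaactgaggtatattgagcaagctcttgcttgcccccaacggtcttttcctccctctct
KIT region, chr4:54746437-54746537: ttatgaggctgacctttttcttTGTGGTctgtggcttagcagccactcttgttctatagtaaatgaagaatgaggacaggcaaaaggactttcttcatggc
GFI1 region, chr1:92461839-92461939: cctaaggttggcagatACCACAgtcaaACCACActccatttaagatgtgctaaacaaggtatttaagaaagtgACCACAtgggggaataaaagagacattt
ERG region, chr21:38679724-38679824: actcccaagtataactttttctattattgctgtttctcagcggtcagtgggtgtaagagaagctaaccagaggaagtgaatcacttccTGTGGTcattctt
CEBPA region, chr19:33267186-33267286: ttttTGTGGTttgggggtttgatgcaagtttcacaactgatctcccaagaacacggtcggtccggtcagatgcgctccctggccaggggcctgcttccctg
RUNX3 region, chr1:25030933-25031033: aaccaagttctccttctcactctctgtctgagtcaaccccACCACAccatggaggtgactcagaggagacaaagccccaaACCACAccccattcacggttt

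The ERG window held a plus-strand GAGGAAG, a PU.1-type and ETS motif, shortly before its TGTGGT. Between GAGGAAG and TGTGGT came an AP-1 motif, then a minus-strand ETS motif that ran into the TGTGGT. The RUNX3 window held an AP-1 motif before each of its 2 RUNX motifs. The last set shows the 2 windows richest in the motif, both made of short tandem repeats, and the window of an IER5 region with 5 copies, which was picked after its values were seen.
CPN2 region, chr3:194327634-194327734: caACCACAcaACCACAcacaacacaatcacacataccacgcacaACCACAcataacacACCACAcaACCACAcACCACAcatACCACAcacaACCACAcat
SDC1 region, chr2:20165002-20165102: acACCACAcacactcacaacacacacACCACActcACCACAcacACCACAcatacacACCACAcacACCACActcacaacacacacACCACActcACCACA
IER5 region, chr1:181159721-181159821: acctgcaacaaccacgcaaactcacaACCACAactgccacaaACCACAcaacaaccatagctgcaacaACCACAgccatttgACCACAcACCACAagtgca

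The 633 regions were, by their medians, slightly weaker and narrower than RUNX1 peaks as a whole. Fold enrichment, which the peak caller gives as summit pileup over local background with 1 added to each, had a median of 14.3, with quartiles of 10.5 and 20.3 and a range from 3.90 to 178. The median region was 528 bases wide (quartiles 391 and 732) and had 19 fragments at its summit (quartiles 13 and 28, range 8 to 236). Most regions therefore rested on few fragments, and 488 of the 633 (77.1%) reached a fold enrichment of 10, but 30 (4.74%) reached 40 and 2 reached 100. Over all 7688 RUNX1 peaks the medians were a fold enrichment of 15.0, 20 fragments and a width of 645 bases. Shared intergenic peaks, which met the same gene and TSS rule but overlapped a PTBP1 peak, had a median fold enrichment of 16.5 (n = 327). The RUNX1-only peaks within genes had a median of 12.8 (n = 1513) and those near a TSS 11.3 (n = 911). These strengths come from the peak call that the rule used, so they are given with no test. A raised local background was found at 31 of the 633 regions (4.90%) and at 395 of all 7688 peaks.

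**Figure D1:**
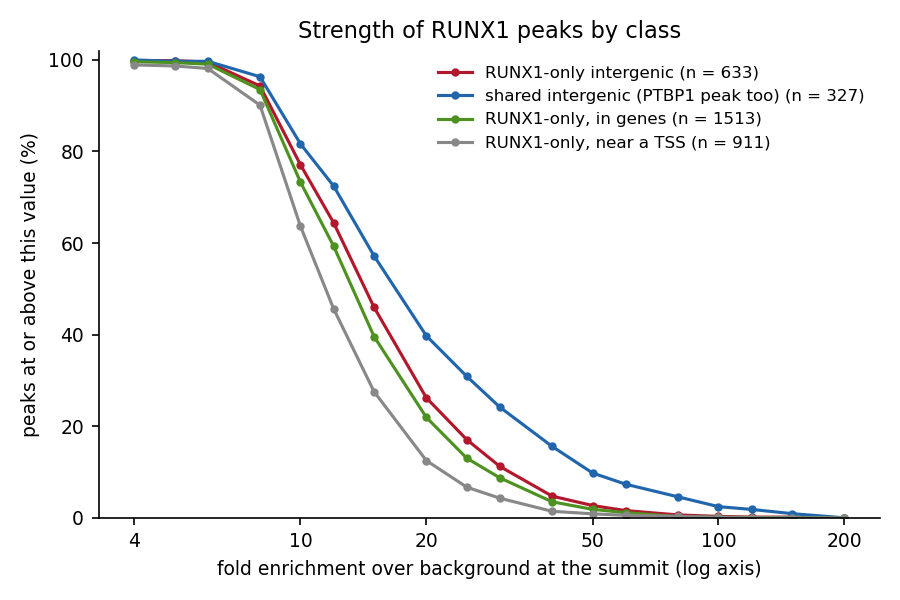
The percentage of peaks (vertical axis) at or above each fold enrichment over background (horizontal axis, log scale) is drawn for the 4 classes, with 1 line per class and n in the legend. The RUNX1-only intergenic line lies below the shared intergenic line and above the other RUNX1-only lines over most of the range, and the medians are 14.3 for RUNX1-only intergenic, 16.5 for shared intergenic, 12.8 for gene-body and 11.3 for TSS peaks.

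The 2 regions up to 100 bases beyond the TSS limit had fold enrichments of 7.52 and 10.5, and the 3 RUNX1-only peaks up to 100 bases inside it ranged from 7.52 to 18.0. The 5 regions within 500 bases of a PTBP1 peak ranged from 6.19 to 45.9, and the nearest gap was 17 bases. The 2 excluded intergenic peaks with a PTBP1 overlap of at most 100 bases had 9.02 and 11.3.

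The 10 strongest regions lay at least 16968 bases from the nearest coding TSS, and 6 of them had the RUNX motif at the summit. The strongest, at chr1:94601734-94603456, had a fold enrichment of 178 from 236 fragments and lay 60819 bases upstream of F3, which encodes tissue factor, the starter of the coagulation cascade. Next came a region at chr5:42268336-42269227 with a fold enrichment of 114 from 150 fragments, 154629 bases upstream of GHR, the growth hormone receptor. These 2 alone passed 100. Regions upstream of TUBGCP5, a subunit of the γ-tubulin complex (chr15:23073674-23075282), and of SASH1, a signaling scaffold (chr6:148203770-148204665), both reached 81.2 from 107 fragments. The one upstream of TUBGCP5 had no RUNX motif in its summit window, while the one upstream of SASH1 had 1.

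The other 6 of the 10 strongest regions lay between fold enrichments of 60.9 and 71.4. Those upstream of PTPN1, a tyrosine phosphatase of cytokine receptor signaling, and of PTK2, focal adhesion kinase, both had 71.4 from 94 fragments. The region downstream of MTFP1, a mitochondrial fission protein, had 69.2, and the one downstream of FAM240B had 66.2. A region upstream of ATP6V0D2, a subunit of the vacuolar proton pump, had 63.2 and began 377 bases from the pseudogene REXO1L2P. It shared sequence with a second region of fold enrichment 54.9 beside REXO1L3P, so the values of both are uncertain. The last of the 10, 180356 bases downstream of ETS2, an ETS family transcription factor, had 60.9 and was the widest of the 633 at 2054 bases. The motif was present in 14 of the strongest 20 regions and 33 of the strongest 50.

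Across the 633 regions the RUNX motif was found within 50 bases of the summit in 317 (50.1%, 95% Wilson interval 46.2 to 54.0). Over all 7688 RUNX1 peaks the share was 24.2%. Windows of the same size centered 500 bases to the left of the same 633 summits held the motif in 66 (10.4%, interval 8.28 to 13.1), against 7.99% in such flanks of all RUNX1 peaks. The motif was at the summit alone in 280 regions and in the flank alone in 29 (two-sided exact sign test, adjusted p = 5.04e-52 over 5 tests). Sequence was no part of the rule, but the motif and the test were chosen with earlier results of these data known.

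The motif was most frequent beside the summit and less so on it. In bins of 20 bases, 57 of the 633 regions (9.005%) had a motif centered in the bin on the summit, 93 (14.7%) in the bin 20 bases to either side, and 106 (16.7%) in the bin 40 bases to the right. At 120 bases the share was 3.95% to the left and 6.32% to the right. RUNX1-only peaks within genes showed the same shape, with 8.66% on the summit and 11.9% and 13.8% at 20 bases to the left and right. The nearest motif lay a median of 34.5 bases from the summit among the 467 regions with one within 150 bases, and 35.5 bases among 1013 gene-body peaks. These shapes are a description, with no test.

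**Figure D2:**
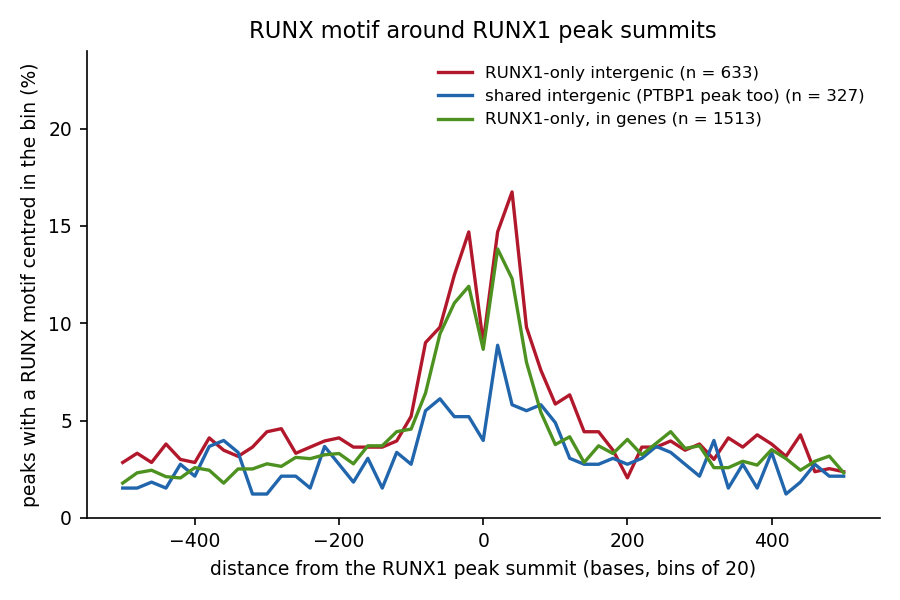
The percentage of peaks with a RUNX motif centered in each bin of 20 bases (vertical axis) is drawn against distance from the summit in bases (horizontal axis), with 1 line each for RUNX1-only intergenic, shared intergenic and RUNX1-only gene-body peaks. The RUNX1-only intergenic line has a peak on either side of the summit, at 14.7% and 16.7%, with 9.005% between them, and the shared intergenic line stays below 9%.

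Shared intergenic peaks had the motif less often. It was found in 79 of 327 (24.2%, interval 19.8 to 29.1), giving an odds ratio of 3.15 for the RUNX1-only regions (two-sided Fisher's exact test, adjusted p = 9.31e-15). The difference was 30.7 percentage points among windows with GC content under 50% and 22.3 points among those at or above it, and both passed Fisher's exact test (adjusted p = 9.62e-07 and 8.52e-08, strata chosen after seeing the data). RUNX1-only peaks near a TSS had the motif in 223 of 911 (24.5%, odds ratio 3.09, Fisher's exact test, adjusted p = 1.18e-24), but in windows with GC under 50% the difference was 9.98 points and did not pass (adjusted p = 0.0874). At and above 50% GC it was 24.8 points. Over all alternatives the adjusted p in these exact tests ran from 1.66e-17 to 9.62e-07 against shared intergenic peaks and from 1.85e-42 to 0.0874 against TSS peaks.

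The contrast with RUNX1-only peaks inside genes was small. There the motif was found in 650 of 1513 windows (43.0%, interval 40.5 to 45.5), 7.12 points below the intergenic regions (odds ratio 1.33, Fisher's exact test, adjusted p = 0.00272). In windows with GC under 50% the difference was 6.20 points and fell short in Fisher's exact test (adjusted p = 0.0874), and at or above 50% it was 7.46 points (adjusted p = 0.0215). Over the 9 alternatives the adjusted p from this exact test ran from 0.000301 to 0.0874.

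Within the 633 regions the motif share rose with strength. It was found in 68 of 191 regions with a fold enrichment of at most 10.5 (35.6%, interval 29.2 to 42.6), in 69 of 149 up to the median (46.3%) and in 71 of 127 above it (55.9%). Among regions at 20.3 or more it was found in 109 of 166 (65.7%, interval 58.2 to 72.5). The highest and lowest groups differed by 30.1 points (odds ratio 3.46, Fisher's exact test, adjusted p = 1.96e-08). At the same cut-offs the share among shared intergenic peaks went from 11.8% to 35.4%, the latter close to the value of the weakest RUNX1-only regions. Gene-body peaks went from 29.8% to 58.4%.

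**Figure D3:**
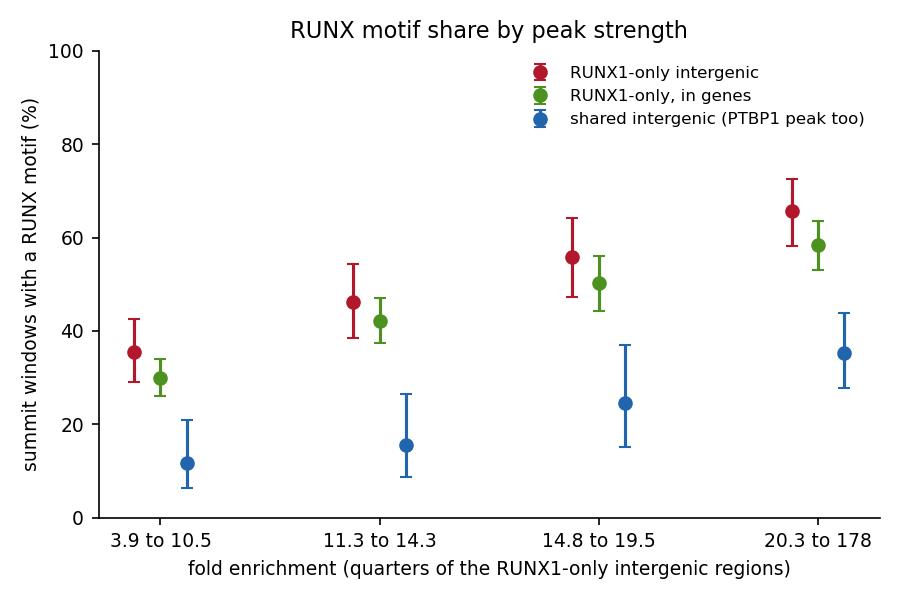
The percentage of summit windows with a RUNX motif (vertical axis, points with 95% Wilson intervals) is drawn for 4 ranges of fold enrichment (horizontal axis, split at the quartiles of the RUNX1-only intergenic regions) in 3 classes. The RUNX1-only intergenic points go from 35.6% to 65.7% and the shared intergenic points from 11.8% to 35.4%.

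Most motif-bearing windows held a single copy. A second copy was present in 85 of the 633 regions (13.4%) and in 355 of all 7688 RUNX1 peaks (4.62%). Shared intergenic peaks had one in 12 of 327 (3.67%) and gene-body peaks in 170 of 1513 (11.2%). These shares count windows without any motif too, so they include the difference in motif presence given above. At least 3 copies were found in 20 regions (3.16%), a count not made for the other classes. Over the whole called peak, rather than the window, 508 regions (80.3%) had at least 1 motif and 125 had none, against 4613 of all 7688 RUNX1 peaks (60.003%), 63.0% of shared intergenic and 76.8% of RUNX1-only gene-body peaks, and peak width differed between these classes. The spelling TGTGGT made up 396 of the 452 motif copies at these summits (87.6%) and TGCGGT, which contains a CpG, made up 56. TGTGGT made up 90.9% of the copies in the regions' own flanks, 83.3% at RUNX1-only gene-body summits, 72.4% over all RUNX1 summits and 50.9% at RUNX1-only TSS summits, so its high share was not particular to these summits. The base after the motif was T at 41.6% of the 452 copies, against 24.2% of the 99 copies in the flanks. The base after that was A at 32.5% against 13.1% and T at 41.2% against 44.4%. The first T was found at 44.9% of copies at gene-body, 39.0% at shared intergenic and 38.8% at all RUNX1 summits. The following A was found at 31.4%, 28.0% and 27.9%, so neither base was particular to these regions.

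Short tandem repeats supplied some of the highest copy numbers. The windows near CPN2 and SDC1, each with 8 copies, came from peaks with 91 and 31 copies in all, and their fold enrichments were 19.5 and 12.03. The 150 bases to either side of the summit matched themselves, at a fixed shift, at 60% or more of positions in 12 of the 633 regions (1.90%). This was so at 66 of all 7688 RUNX1 peaks (0.858%), 21 of 1513 gene-body peaks (1.39%) and 5 of 327 shared intergenic peaks (1.53%). Among the 911 RUNX1-only TSS peaks the count was 0. The GHR region did not reach the 60% level, with a match of 36.4% at a shift of 7 bases. Its 7 copies are themselves a short repeat, but one that fills only part of the stretch measured. Another of the 12, near KRTAP5-6 with a fold enrichment of 41.4 and a repeat unit of 63 bases, held no RUNX motif. Words of 31 bases were shared between summit windows of 8 regions.

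Of 8 further motifs, sought on both strands, the ETS motif alone passed the test against flanks. AGGAAG occurred in 114 of the 633 summit windows (18.0%) and 76 flanks (12.01%), with 98 regions at the summit alone and 60 in the flank alone (exact sign test, adjusted p = 0.0499 over 16 tests, range over the alternatives 1.39e-06 to 0.0189). Over all RUNX1 peaks it was in 15.6% of summits and 11.6% of flanks. The C/EBP motif TTGCNNAA was in 8.06% of summits and 4.42% of flanks, and the PU.1-type motif GAGGAAG, which contains the ETS letters, in 7.74% and 4.42% (exact sign test, adjusted p = 0.0667 for both). Neither passed here, but both passed with windows of 100 bases either side, with the flank to the right and with stronger peaks (exact sign tests, highest adjusted p = 0.0337 for C/EBP and 0.0435 for the PU.1-type motif). Over all RUNX1 peaks the C/EBP motif was in 3.99% of summits and 3.38% of flanks, and the PU.1-type motif in 6.89% and 4.31%. Gene-body RUNX1-only peaks had the C/EBP motif in 6.15% of summits and 3.83% of flanks, and the PU.1-type motif in 10.4% and 4.10%.

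Motifs of the other factors gave smaller or no differences. The AP-1 motif TGANTCA was in 5.21% of summits and 2.69% of flanks (exact sign test, adjusted p = 0.0952), and the MYB motif AACTG or AACGG in 25.9% and 20.7% (adjusted p = 0.102). With windows of 100 bases either side both passed the exact test (adjusted p = 0.000237 and 0.00141), and over the alternatives the highest values were 0.435 and 0.171. Values for the GATA motif AGATAA were 6.16% and 7.11%, for the E-box CAGCTG or CAGATG 14.2% and 12.01%, and for the CTCF motif 0.158% at both places. Over all RUNX1 summits the shares were 3.08% for AP-1, 22.1% for MYB, 2.29% for GATA, 11.1% for the E-box and 0.182% for CTCF. At RUNX1-only gene-body summits they were 5.82% for AP-1, 26.6% for MYB, 3.57% for GATA, 14.6% for the E-box and 0.132% for CTCF. None of the 8 differed in the test between RUNX1-only and shared intergenic summits. The C/EBP motif came closest there, at 8.06% against 4.28% (Fisher's exact test, unadjusted p = 0.0297, adjusted p = 0.0952). The ETS motif was in 62 of 317 regions with a RUNX motif (19.6%) and 52 of 316 without (16.5%).

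**Figure D4:**
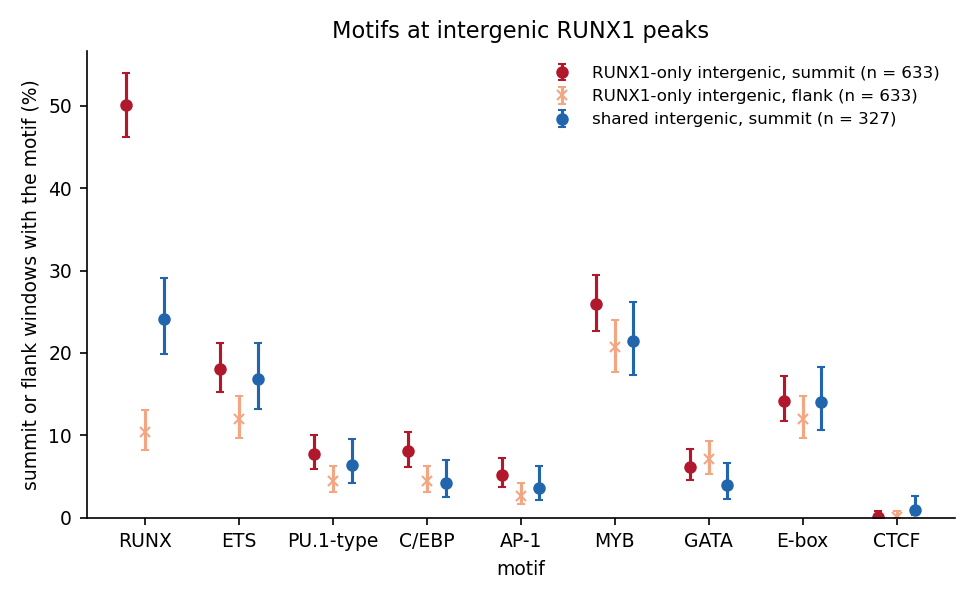
The percentage of windows holding each of 9 motifs (vertical axis, points with 95% Wilson intervals) is drawn for summits and flanks of RUNX1-only intergenic regions and for summits of shared intergenic peaks. RUNX stands apart, with 50.1%, 10.4% and 24.2%, and ETS is the other motif whose summit (18.0%) and flank (12.01%) intervals do not overlap.

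The RUNX1-only regions were poorer in GC than shared intergenic peaks. Their summit windows had a median GC content of 50.5% against 57.4%, and 333 of 633 (52.6%) were at or above 50% GC against 240 of 327 (73.4%; Fisher's exact test, adjusted p = 1.04e-09 over 6 tests). At least 2 CpG were present in 282 windows (44.5%) against 225 (68.8%, Fisher's exact test, adjusted p = 5.61e-12). Gene-body RUNX1-only peaks gave 55.7% and 46.8%, and neither differed from the intergenic regions in Fisher's exact test (adjusted p = 0.299 and 0.411).

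They also had a coding TSS nearby less often than shared intergenic peaks. A protein-coding TSS was within 50 kb of 378 regions (59.7%, interval 55.8 to 63.5) and of 232 shared intergenic peaks (70.9%, interval 65.8 to 75.6; Fisher's exact test, adjusted p = 0.00134). Gene-body peaks gave 59.4%, a description with no test, since position in a gene defines that class. The median distance to a coding TSS was 36595 bases (quartiles 13099 and 87897), and 22 regions lay more than 500000 bases away. Of the 633, 442 (69.8%) lay upstream of the nearest coding TSS, as did 223 of the 327 shared peaks (68.2%), and a position on the downstream side had to lie past the end of the gene to be counted. A gene of any type was closer, at a median of 8068 bases.

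With overlapping peaks removed by the rule, the nearest PTBP1 peak was mostly distant. The gap to the nearest one had a median of 82742 bases (quartiles 20152 and 315554), with 18 regions within 1000 bases, 111 within 10000 and 110 beyond 500000. Gene-body RUNX1-only peaks had a median gap of 83863 bases. Over all 7688 RUNX1 peaks the median gap was 0 and the upper quartile 49123.5 bases. The rule took out every peak with an overlap, 327 of them intergenic, and the gene-body class was chosen in the same way. These gaps are therefore partly set by the choice of peaks and are only a description.

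**Figure D5:**
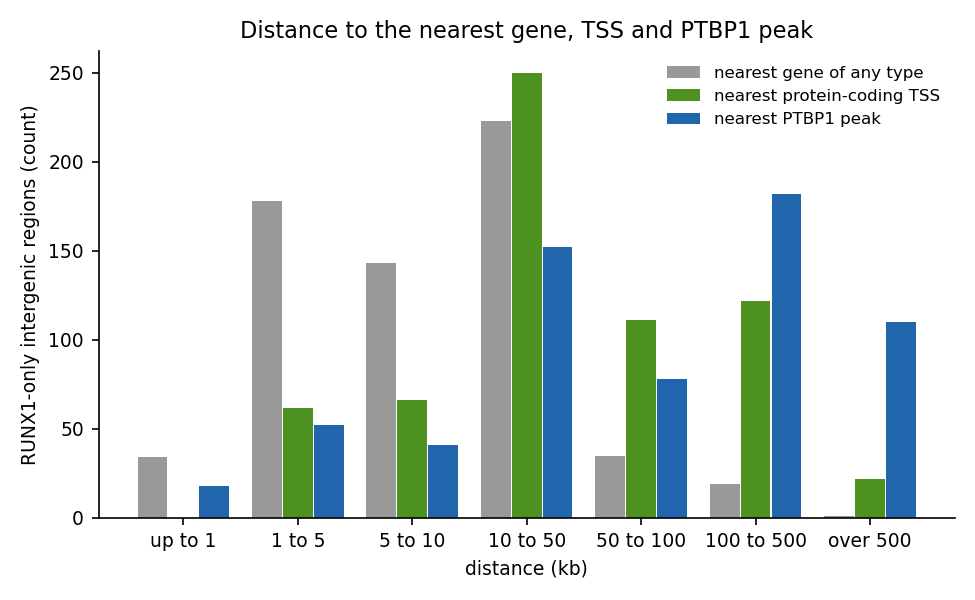
The number of the 633 RUNX1-only intergenic regions (vertical axis) is drawn in 7 distance classes in kb (horizontal axis), with bars for the nearest gene of any type, the nearest protein-coding TSS and the nearest PTBP1 peak. The commonest class for genes and coding TSSs is 10 to 50 kb, with 223 and 250 regions, and for PTBP1 peaks 100 to 500 kb, with 182.

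The regions were mostly single. Chaining regions at gaps of at most 12500 bases left 548 alone, 38 pairs and 3 triplets, and 199 of the 633 (31.4%) had another RUNX1 peak of any class within that distance. The triplet at SRGN, which encodes serglycin, the proteoglycan of myeloid granules, lay 12495, 14910 and 22419 bases upstream of its TSS, with fold enrichments of 23.3, 24.8 and 13.5. The nearer 2, printed above, each had a RUNX motif, and the farthest had none. The triplet upstream of NRROS, a regulator of reactive oxygen and TGF-β in myeloid cells, had 10.5, 18.8 and 12.8, and that upstream of NEK6, a mitotic kinase, had 10.5, 9.02 and 18.0. Each of these triplets had a motif in 2 of its 3 windows.

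As nearest coding TSS, the 633 regions had 549 different genes, which was 2.74% of 20007 coding gene names. Of 98 genes in 9 lists of hematopoietic function, 19 (19.4%) were among them, through 23 regions. The lists had been drawn up with RUNX1 biology and earlier results of these data in view, so this share is a description. Among 18 transcription factors of myeloid differentiation 6 were nearest to a region, CEBPA, GFI1, KLF4, FOS and BATF3 among them, and of the 7 factors of the stem cell heptad 2 were (GATA2 and ERG). None of 11 HOXA genes and HOX cofactors was.

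Among the transcription factors of these lists, the region at FOS, an AP-1 subunit, was the strongest. It had a fold enrichment of 40.6 from 53 fragments, 3850 bases upstream of the TSS, and lay 1356 bases from a PTBP1 peak. The region at GFI1, a repressor needed for granulocyte development, had 21.8 with 3 RUNX motifs, 25036 bases downstream of the TSS and 713 bases from a PTBP1 peak. ERG, an ETS factor of stem cells, had a region 17994 bases upstream with a fold enrichment of 21.1. At CEBPA, which drives granulocyte commitment, the region lay 35298 bases downstream of the TSS with 13.5 and 1 motif, and a PTBP1 peak was 995 bases away. GATA2, a stem and progenitor factor, had a region of 12.03 at 30525 bases upstream. Its window held no RUNX motif but had ETS, PU.1-type and C/EBP motifs.

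Regions at other transcription factors lay at a wide range of distances. KLF4, a monocyte factor, had 3, at 270338, 661087 and 666288 bases upstream, with fold enrichments of 17.3, 15.0 and 22.6. BATF3, a dendritic cell factor, had 1 of 18.0 at 16404 bases downstream, and its window held an ETS motif but no RUNX motif.

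In the RUNX family and its corepressors, 2 of 10 genes were nearest to a region. RUNX3, a paralog of RUNX1, had a region 65862 bases upstream with a fold enrichment of 16.5 and 2 motifs. The region nearest to the Groucho corepressor TLE1 had 13.5 and lay 575920 bases downstream of its TSS. No region had the RUNX1 TSS as its nearest.

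Growth and signaling genes had regions with fold enrichments from 7.52 to 23.1. The region at KIT, the stem cell factor receptor, had 23.1 from 85 fragments and lay 89220 bases downstream of the TSS. It was one of the 31 with a raised local background, 2.72 fragments against the usual 0.33. So was the region of the kinase gene PIM1, with 14.8 at 13260 bases downstream. The cyclin gene CCND1 had one of 19.5 at 135064 bases upstream, and the adhesion receptor CD44 one of 18.8 at 56189 bases upstream. The survival gene BCL2 had 13.5 at 2228 bases upstream, and the phosphatase DUSP6 11.3 at 6031 bases downstream. The transferrin receptor TFRC had 9.02 at 14700 bases upstream, and the cell cycle inhibitor CDKN1A 7.52 at 31642 bases upstream. Of these 8 regions, those at KIT, PIM1, CD44 and DUSP6 had a RUNX motif at the summit.

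The gene with most regions was IER5, an immediate early gene, with 5 between 16665 and 71071 bases from its TSS and fold enrichments from 9.02 to 25.6. It was singled out after its values were seen. The strongest of its regions was the one with 5 motifs, 3 had none, and 1 had a single copy. Another 9 genes had 3 regions each, SRGN, KLF4 and ETS2 among them.

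By chromosome, the regions ranged from 10 on chromosome 15 to 73 on chromosome 1, with none on Y, where no RUNX1 peak was called at all. Among the chromosomes with high shares, 13 had 20 of 127 RUNX1 peaks in this class (15.7%), X 18 of 121 (14.9%) and 8 had 52 of 384 (13.5%), against 8.23% of RUNX1 peaks on all chromosomes, and chromosome 15 had 10 of 243 (4.12%). Chromosome copy number in this line was not analysed here.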

How the data were processed

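The lists name no assay and were assumed to be from CUT&Tag. Per the study's methods for that assay, the authors mapped read pairs to the hg38 build (Bowtie2), dropped duplicates and alignments at or below a mapping quality of 30, and ran MACS3 with a q-value limit of 1e-07. The versions of these tools, the control used and whether replicates were pooled are not given in the sources used here. The submitters' processing notes also list bedtools 2.30.0. The deposited lists give each peak's fold enrichment (a ratio of pileup to background, with 1 added to each), its −log10 p-value and −log10 q-value, and the summit offset. No sample columns were left out, since each list is 1 table for its target, and total library depths were not used.

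The members, gene lists, motifs and tests were chosen with earlier results of these data known. The fold enrichment and −log10 p-value were solved together for whole fragments and background at each summit (largest residual 0.00134). Gene positions came from GENCODE version 44, sequence from hg38, and coordinates are 1-based. An overlap of 1 base counted as shared. A background above 1.5 times the commonest value was called raised. Tests were two-sided exact sign tests and Fisher's exact tests with Benjamini-Hochberg adjustment within families of 5, 16 and 6 tests, called at 0.05. A planned test of repeat-masked summits was left out because the genome carried no masking. Named regions were the 10 strongest, the 3 strongest without a RUNX motif, the 3 with most motifs, the 3 largest chains and the strongest region of each listed gene. The region of 1 listed gene is not reported here. The distance of gene-body peaks to a coding TSS, 1 of the 6, is reported without its p because position defines that class. Alternatives changed the motif spelling, window, flank, significance, PTBP1 and TSS distances, annotation and background. Removal of tandem repeats and GC strata were added after seeing the data. Procedures were tested on simulated data. The software was scipy 1.17.1, pandas 2.3.3 and numpy 2.4.6, with matplotlib 3.10.9 for figures, under Python 3.11.15.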

Additional observations from a re-analysis of the deposited data

How the results depend on the processing

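The number of regions stayed within 1.5 times 633 when peaks within 1000 bases of a PTBP1 peak or 5000 bases of a TSS, weaker peaks or raised backgrounds were left out (490 at the lowest), but was 969 when genes other than protein-coding ones were ignored. The RUNX motif comparisons against flanks, against shared intergenic peaks and between strength groups kept their direction and passed under the 10, 9 and 9 alternatives run. Those against gene-body and TSS peaks did so under 8 of 9 each. The exception was windows with GC under 50%, with differences of 6.20 and 9.98 points. For motifs other than RUNX, the number passing against flanks went from 1 to 5 with windows of 100 bases either side, to 3 with a −log10 q-value of at least 10, and to 3 with the flank to the right. The share of regions within 50 kb of a coding TSS turned from 0.363 points above gene-body peaks to -0.809 with stronger peaks, and is only a description. The causes were not tested. No paired analysis was possible because the peak lists carry no replicate. Depth enters through the fragments at each summit, with a lowest of 8, so weaker sites are not listed.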
